A study of Rattus norvegicus with 12 samples.

Results

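Expression of the genes for the citric acid cycle, the pyruvate dehydrogenase complex and the malate-aspartate shuttle was compared between housing and activity groups of rats, in heart left ventricle taken from Sprague-Dawley females at 16 months of age. The list holds 30 genes chosen by pathway, with earlier results of these data known. It includes the NADPH-linked enzymes and the citrate carrier that draw on cycle intermediates. A probe set, a group of short array probes for 1 transcript, was assigned to a member when its annotation gave that gene as its only symbol. This gave 39 probe sets for 28 of the 30 genes, out of 31042 on the array, and Fh and Dlat were not matched. Of these, 34 probe sets for 27 genes lay in the upper 60% of all probe sets by mean log2 value and were tested, and where a gene had several of these, the one with the highest mean stood for it (the representative probe set). Slc25a1, the mitochondrial citrate carrier, had a mean of 4.30, under the filter at 4.94, and was not tested.

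Rats of the EX group could exercise voluntarily throughout life, those of the PA group spent 1 h on 2 occasions a week being active in a large box, and those of the SED group lived only in a standard cage. The groups shared strain, sex, age and supplier (Charles River). Each group had 4 arrays with RNA pooled from several animals. The design text gives 12 animals per group at 4 per array, which would fill 3 arrays, so the animals behind each array were not settled, and errors and p-values here cover only the variation from one pooled array to another.

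Pyruvate dehydrogenase turns pyruvate into acetyl-CoA in the mitochondrial matrix, and the citric acid cycle oxidizes acetyl-CoA to carbon dioxide while it passes electrons to NADH and to the respiratory chain. The malate-aspartate shuttle carries the reducing equivalents of cytosolic NADH into the matrix through paired cytosolic and mitochondrial enzymes and 2 kinds of carrier. Heart muscle is rich in the enzymes of these routes, and citrate synthase activity is a common measure of mitochondrial content in exercise studies.

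The 12 arrays had alike medians, from 5.64 to 5.72, but their spread differed by group. The interquartile range was 3.58, 3.84, 3.86 and 3.73 in SED 1 to 4. It was wider on every PA array (3.93 to 4.03) and every EX array (3.89 to 4.04). The part of this narrower SED scale in the differences from SED was not tested. SED 1 stood apart: it correlated with the remaining arrays at 0.964 on average, where the others reached 0.987 to 0.989, and its Gapdh controls had the widest gap between the 3' and 5' probe sets (1.56 against 0.96 to 1.35). Results are therefore given with and without SED 1. Cardiomyocyte markers were bright, with all 9 of 9 measured above the filter and array means within -0.05 and 0.07 of their overall level (log2), and -0.02 in SED 1. Some other marker lists stood apart in SED 1. Relative to their overall level the 4 neutrophil and red blood cell markers stood at -1.12 there and reached 1.31 in another SED array. The 8 leukocyte markers stood at -0.32 and reached 0.76, and the 6 fibroblast markers stood at -0.21. The 5 atrial markers stood at -0.38 in SED 1 but ranged more widely in EX, from -0.78 to 1.05. The endothelium, adipocyte, smooth muscle and skeletal muscle lists stood at 0.06, 0.04, -0.04 and -0.155 in SED 1. No marker passed the threshold, and the part of these cells in the results was not tested. In whole ventricle, fewer cells of a type and less RNA per cell cannot be told apart.

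None of the 27 tested members passed an limma adjusted p of 0.05 in any comparison, against 0.0% of all 10244 genes tested. At an unadjusted p under 0.05 there were also 0 of 27 members in each comparison. Over all genes that share was 7.33% higher and 5.14% lower in PA against SED, 6.97% and 5.95% in EX against SED, and 0.937% and 1.59% in EX against PA. The smallest limma adjusted p of a member's representative probe set was 0.332, for Sdha in PA against SED. The moderated F test over the 3 groups gave its smallest adjusted p, 0.524, for Got1 and Sdha.

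The differences were estimated with narrow errors. The 95% interval lay within 1.5-fold in either direction for 26 of 27 members in PA against SED, for 26 in EX against SED and for 27 in EX against PA, where 65.0%, 65.3% and 76.1% of all genes did so. The exception was Got1 in both comparisons with SED. Without SED 1 all 27 members lay within that bound in all 3 comparisons. With all arrays, 98.4%, 98.5% and 99.7% of the brightest 10% of all genes tested did so, in the same order of comparisons. The members were among the bright probe sets of the array, 22 of 27 in the top 10%, and their median SD within a group was 0.0797 in PA, 0.0768 in EX, 0.127 in SED and 0.0872 in SED without SED 1. The brightest 10% of all genes tested had median SDs of 0.0753, 0.0678, 0.109 and 0.0635.

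By their means, most members stood slightly higher in PA than in SED. The PA mean was higher in 23 members and lower in 4 (Dlst, Suclg2, Idh1 and Idh2), with a median difference of 0.09, while 59.7% of all genes had a higher PA mean, with a median of 0.05. Without SED 1 the split was again 23 and 4, now with Pdhb, Dlst, Slc25a13 and Idh1 lower, and the median was 0.05 against 0.03 over all genes. In EX against SED 14 members had a higher mean, 12 a lower one and Suclg2 the same, with a median of 0.0050 against 0.03 over all genes, and without SED 1 it was 11 higher and 16 lower, with a median of -0.01. In EX against PA 4 were higher and 23 lower, with a median of -0.07 against -0.02 over all genes. These comparisons share arrays, so the counts do not support each other. With quantile normalization the members split 23 to 4 in PA against SED, 12 to 15 in EX against SED and 4 to 23 in EX against PA, while the share of all genes with a higher PA than SED mean went from 59.7% to 47.5%.

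Groups whose arrays did not overlap were few on the representative probe sets, which alone are counted here. Further probe sets of Cs, Pdha1 and Me1 also had all PA arrays above all SED arrays and are given below. In PA against SED 2 of 27 members had all PA arrays above all SED arrays and 0 had them below, where 4.02% and 2.87% of all genes did so. In EX against PA the counts were 0 above and 2 below (1.04% and 1.69% of all genes), and in EX against SED 0 and 0 (3.45% and 3.31%). Without SED 1, PA stood clear above SED in 2 members (5.77% of all genes) and below in 0 (3.92%), and EX above SED in 1, Suclg2 (5.74%), and below in 0 (4.89%). Leaving that array out again gave 0 of 27 members at an limma adjusted p under 0.05, where 0.00976% of all genes passed in EX against SED and 0.0% in PA against SED. At an unadjusted p under 0.05 there were 0 members as well, against 6.21% higher and 6.02% lower of all genes in EX against SED 5.79% and 4.29% in PA against SED, and 1.76% and 2.88% in EX against PA.

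**Figure D1:**
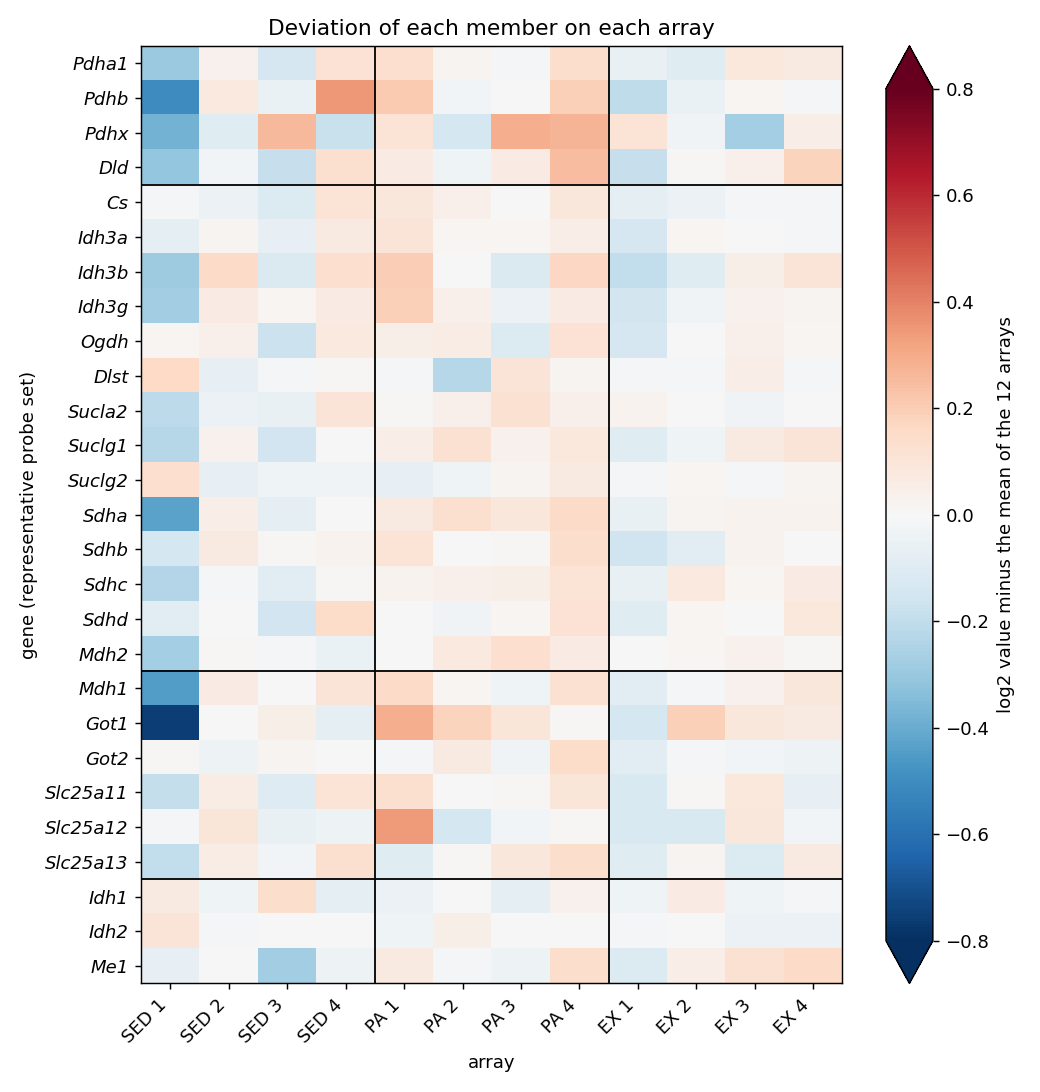
Log2 value of the representative probe set of each of the 27 tested members on each array, minus the mean of the 12 arrays, with blue for lower and red for higher values and lines between roles and between groups. SED 1 is the bluest column, with 15 of 27 members at their lowest there, and its Got1 cell is the lowest of all.

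Pyruvate dehydrogenase joins glycolysis to the cycle, and 4 of its 5 listed subunits were tested. Pdha1, the E1 alpha subunit that carries the regulatory phosphorylation sites, read 11.57, 11.90, 11.73 and 11.98 in SED 1 to 4, 12, 11.89, 11.85 and 12.01 in PA and 11.81, 11.77, 11.95 and 11.94 in EX. On this representative probe set SED 1 was the lowest array, and the groups overlapped in all comparisons. The PA mean was above the SED mean by 0.14 (95% interval -0.08 to 0.37) and the EX mean by 0.07 (-0.15 to 0.30), and without SED 1 these were 0.07 and -0.0025.

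Pdhx, which binds the E3 subunit to the core of the complex, read 8.90, 9.18, 9.54 and 9.10 in SED, 9.39, 9.14, 9.57 and 9.55 in PA and 9.39, 9.25, 9.01 and 9.33 in EX. SED 1 was the lowest of the 12 arrays, and SED 3 was exceeded by PA 3 and PA 4 alone, so the groups overlapped widely. The differences were 0.23 (-0.09 to 0.56) in PA against SED and -0.17 (-0.49 to 0.16) in EX against PA. Without SED 1 the first was 0.14 and without SED 3 it was 0.35, while the second was -0.26 without PA 2 and -0.09 without EX 3. Pdhb, the E1 beta subunit, had the widest SED range of the complex, 10.78 to 11.63, against 11.26 to 11.49 in PA and 11.08 to 11.30 in EX. Its EX against SED difference was -0.03 with all arrays and -0.19 (-0.43 to 0.06) without SED 1, and PA against SED was 0.13 and -0.03. Dld, the E3 subunit shared with the 2-oxoglutarate dehydrogenase complex, ranged from 10.79 to 11.23, from 11.07 to 11.35 and from 10.92 to 11.28 in the same order. All 4 subunits had their lowest value in SED 1 and their highest group mean in PA; without SED 1 the PA mean was the highest for 3 of 4.

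Citrate synthase, Cs, condenses acetyl-CoA with oxaloacetate and opens the cycle. Its representative probe set read 11.61, 11.58, 11.52 and 11.74 in SED, 11.72, 11.67, 11.63 and 11.72 in PA and 11.55, 11.58, 11.61 and 11.61 in EX. On this probe set, but not on the further tested ones of Cs, the EX arrays all lay below the PA arrays. The SED arrays here covered the range of both. EX stood 0.10 below PA (95% interval of the difference -0.27 to 0.07, limma adjusted p = 1.0), PA 0.07 above SED (-0.10 to 0.24) and EX 0.03 below SED (-0.19 to 0.14).

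NAD-dependent isocitrate dehydrogenase, a regulated step of the cycle, is built from Idh3a, Idh3b and Idh3g. The catalytic subunit Idh3a read 10.41, 10.51, 10.42 and 10.56 in SED, 10.59, 10.50, 10.50 and 10.54 in PA and 10.35, 10.50, 10.49 and 10.47 in EX, a span of 0.24 over the 12 arrays. EX 1 was the lowest, and the differences were 0.06 (-0.11 to 0.23) in PA against SED and -0.02 (-0.19 to 0.15) in EX against SED. Idh3b ranged from 11.48 to 11.92 in SED, 11.65 to 11.96 in PA and 11.57 to 11.87 in EX, and Idh3g from 12.05 to 12.39, 12.28 to 12.52 and 12.18 to 12.36, both with SED 1 lowest. Ogdh, the E1 subunit of the 2-oxoglutarate dehydrogenase complex, read 11.58, 11.60, 11.39 and 11.64 in SED, 11.61, 11.62, 11.45 and 11.68 in PA and 11.43, 11.56, 11.60 and 11.58 in EX. Here SED 3 and not SED 1 was lowest, and the differences were 0.04 in PA against SED, -0.01 in EX against SED and -0.05 in EX against PA. Dlst, the E2 subunit of the same complex, had its highest value in SED 1 (10.88) and its lowest in PA 2 (10.49).

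Succinyl-CoA ligase yields a nucleoside triphosphate directly. Suclg1, the alpha subunit common to both forms of the enzyme, read 11.22, 11.48, 11.29 and 11.45 in SED, 11.50, 11.57, 11.48 and 11.53 in PA and 11.35, 11.41, 11.52 and 11.55 in EX. The lowest PA array met the highest SED array at 11.48, and PA stood 0.16 above SED (-0.03 to 0.35, limma adjusted p = 0.401), or 0.11 without SED 1. The beta subunits differed from each other in where SED 1 fell: Sucla2, of the ATP-forming enzyme, was lowest there (10.77, against 10.92 to 11.10 on the other arrays), and Suclg2, of the GTP-forming enzyme, was highest (11.40, against 11.20 to 11.34).

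Succinate dehydrogenase is both a cycle enzyme and complex II of the respiratory chain. Among the members' representative probe sets, that of its flavoprotein Sdha came closest to the threshold. It read 11.35, 11.83, 11.70 and 11.78 in SED, 11.85, 11.91, 11.87 and 11.93 in PA and 11.72, 11.80, 11.81 and 11.81 in EX. The 4 PA arrays lay above all SED and all EX arrays (the closest SED array was SED 2), and SED 1 was the lowest. PA stood 0.23 above SED (95% interval -0.0023 to 0.45, limma adjusted p = 0.332) and, without SED 1, 0.12 (-0.04 to 0.28, limma adjusted p = 0.537).

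The membrane anchor Sdhc also had PA arrays above all SED arrays. It read 11.45, 11.67, 11.59 and 11.69 in SED, 11.71, 11.72, 11.73 and 11.79 in PA and 11.62, 11.76, 11.70 and 11.75 in EX. PA stood 0.14 above SED (-0.04 to 0.32), or 0.09 without SED 1 (-0.07 to 0.25). The iron-sulfur subunit Sdhb read 11.12, 11.33, 11.27 and 11.29 in SED, 11.37, 11.26, 11.27 and 11.40 in PA and 11.10, 11.17, 11.29 and 11.26 in EX. Its EX arrays overlapped those of PA, and EX stood 0.12 below PA (-0.30 to 0.06), the member with the smallest p of that comparison (limma adjusted p = 1.0). The second anchor, Sdhd, ranged from 11.96 to 12.26 in SED, 12.09 to 12.23 in PA and 12.02 to 12.20 in EX. PA had the highest mean for all 4 subunits, while EX exceeded SED on average for Sdha, Sdhc and Sdhd and not for Sdhb.

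Mdh2, the mitochondrial malate dehydrogenase, closes the cycle and also works in the shuttle. It read 12.10, 12.38, 12.36 and 12.32 in SED, 12.37, 12.45, 12.51 and 12.44 in PA and 12.37, 12.39, 12.41 and 12.38 in EX. The EX arrays were the tightest, with an SD of 0.0171 and SED 1 was the lowest array. PA stood 0.15 above SED (-0.03 to 0.34, limma adjusted p = 0.401), and without SED 1 the difference was 0.09 (-0.07 to 0.24).

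**Figure D2:**
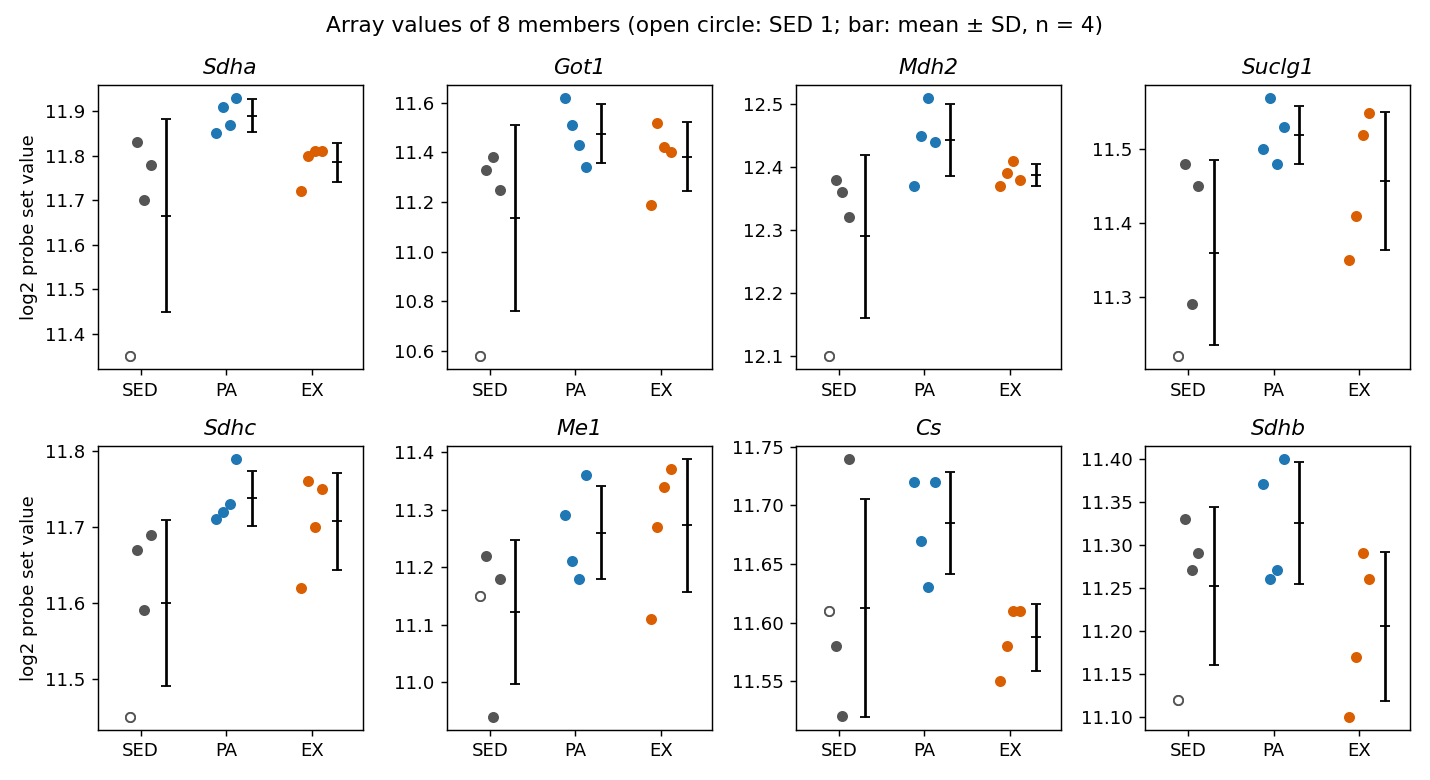
Log2 values of the representative probe sets of 8 members on each array by group, each panel with its own vertical scale, with the mean and SD of the 4 arrays beside the points and SED 1 as an open circle. For Sdha and Sdhc all 4 PA arrays lie above all SED arrays, and for Cs all EX arrays lie below all PA arrays.

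In the malate-aspartate shuttle, cytosolic malate dehydrogenase (Mdh1) and aspartate aminotransferase (Got1) work against their mitochondrial partners Mdh2 and Got2. With all arrays Got1 had the largest differences of the list in both comparisons with SED and the largest SD within SED, 0.374. Without SED 1 Pdhb (-0.19), Me1 (0.16), Idh3b (-0.09), Sdhb (-0.09), Slc25a13 (-0.09) and Idh3g (-0.08) differed more than Got1 in EX against SED. Got1 read 10.58, 11.33, 11.38 and 11.25 in SED, 11.62, 11.51, 11.43 and 11.34 in PA and 11.19, 11.52, 11.42 and 11.40 in EX. SED 1 lay far below the other 11 arrays, which ranged from 11.19 to 11.62, and the other SED arrays overlapped both groups. PA stood 0.34 above SED (-0.01 to 0.69, limma adjusted p = 0.344) and EX 0.25 above SED (-0.11 to 0.60, limma adjusted p = 0.487). Without SED 1 these differences were 0.15 (-0.07 to 0.38) and 0.06 (-0.16 to 0.28).

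Got2 was not low on that array. It read 11.87, 11.82, 11.88 and 11.86 in SED, 11.85, 11.93, 11.83 and 12.01 in PA and 11.77, 11.85, 11.84 and 11.82 in EX, and EX stood 0.09 below PA (-0.25 to 0.08). Mdh1 ranged from 11.88 to 12.43 in SED, 12.29 to 12.48 in PA and 12.24 to 12.42 in EX, with SED 1 lowest.

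The shuttle's carriers exchange malate for 2-oxoglutarate and aspartate for glutamate across the inner membrane. Slc25a11, the oxoglutarate carrier, read 10.59, 10.84, 10.68 and 10.89 in SED, 10.91, 10.78, 10.79 and 10.88 in PA and 10.66, 10.79, 10.87 and 10.72 in EX. Slc25a12, the aspartate-glutamate carrier of heart and brain, read 9.78, 9.89, 9.73 and 9.75 in SED, 10.13, 9.65, 9.77 and 9.80 in PA and 9.67, 9.67, 9.88 and 9.77 in EX. Both overlapped between all groups, and for Slc25a12 a single array, PA 1, lay above the rest. PA stood 0.09 (-0.11 to 0.29) and 0.05 (-0.19 to 0.29) above SED for the pair; without SED 1 the former was 0.04, and without PA 1 the latter was -0.05. Slc25a13, the paralog best known from liver, ranged from 11.74 to 12.07 in SED, 11.84 to 12.08 in PA and 11.83 to 12.01 in EX.

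The enzymes that use cycle intermediates to make NADPH did not have their lowest values in SED 1 on any of the 3 representative probe sets, while the dimmer probe set of Me1 did. Idh2, the mitochondrial NADP-dependent isocitrate dehydrogenase, read 13.20 in SED 1 and 13.05 to 13.14 elsewhere, the narrowest span of the list at 0.15. Idh1, its cytosolic counterpart, ranged from 11.54 to 11.76 in SED, 11.54 to 11.65 in PA and 11.58 to 11.68 in EX.

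Me1, the cytosolic malic enzyme, was the member with the smallest p in EX against SED with all arrays, and ranked second to Pdhb without SED 1. Its representative probe set read 11.15, 11.22, 10.94 and 11.18 in SED, 11.29, 11.21, 11.18 and 11.36 in PA and 11.11, 11.27, 11.34 and 11.37 in EX. SED 3 was the lowest array and EX 1 the next, so the groups overlapped. EX stood 0.15 above SED (-0.06 to 0.36, limma adjusted p = 0.473) and PA 0.14 above SED (-0.07 to 0.34), and without SED 1 the differences were 0.16 and 0.15. Me1 is also an adipocyte enzyme. Of 7 measured adipocyte markers, Adipoq, Plin1, Cidec and Lep lay under the filter, and the 3 above it averaged between -0.08 and 0.39 in SED, -0.14 and 0.05 in PA and -0.22 and 0.11 in EX relative to their overall level, with none past the threshold. Their part in the Me1 values was not tested.

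**Figure D3:**
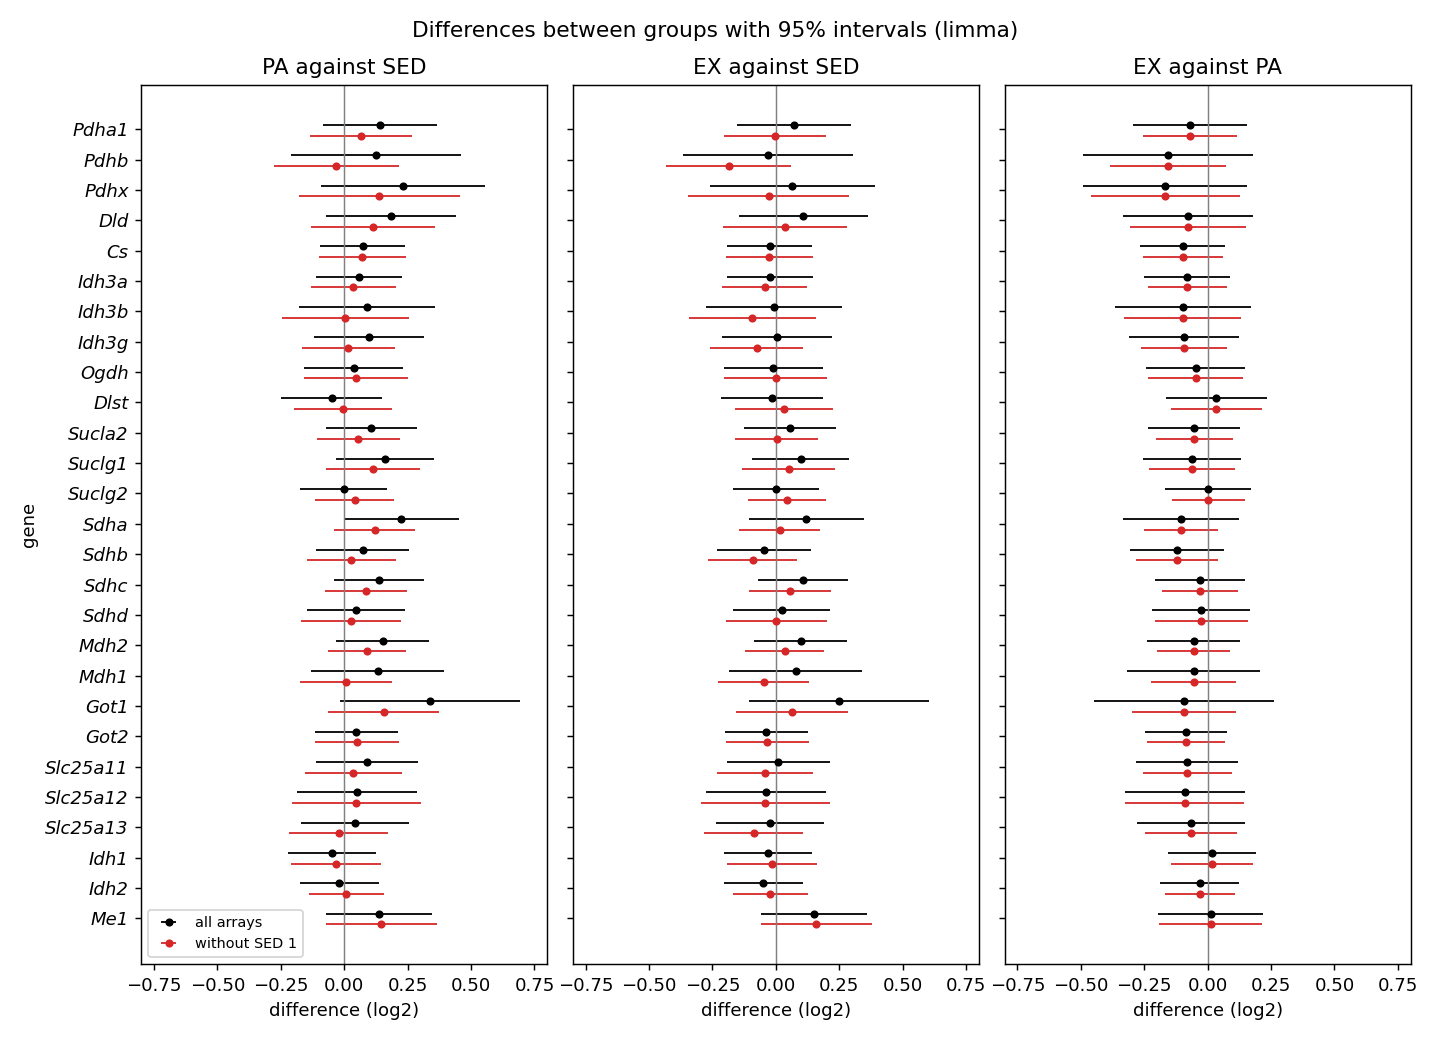
Difference in log2 value between groups for each of the 27 tested members, with the 95% interval of the limma fit, with all arrays (black) and without SED 1 (red). All intervals include 0, and leaving out SED 1 moves PA against SED from 0.34 to 0.15 for Got1 and from 0.23 to 0.12 for Sdha.

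SED 1 was below all other 11 arrays in 15 of 27 members (55.6%), and above them in 3 (11.1%). Over all genes tested it was below in 33.6% and above in 21.9%, and in the brightest 10% of genes, a set chosen after the values were seen, in 35.7% and 21.3%. The median of SED 1 minus the mean of the other arrays was -0.22 over the members and -0.07 over all genes. By role, the mean deviation of SED 1 from the level over the 12 arrays was -0.37 for pyruvate dehydrogenase, -0.27 for the shuttle, -0.14 for the cycle and 0.04 for the NADPH-linked enzymes. EX 1 was the lowest array of the other groups for the members, at -0.09, and had the next widest Gapdh gap (1.35). The part of RNA integrity in these values was not tested.

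The data held 6 members that had more than 1 tested probe set. In PA against SED the probe sets of 5 of the 6 genes shared a sign, and in EX against SED those of 3. Of the 7 further probe sets, 6 were lowest in SED 1, and their median in SED 1 minus the mean of the other arrays was -0.46. The same values over the further probe sets of all genes were not computed, so they cannot be called particular to the members. For Cs, SED 1 lay 0.02 below the mean of the other arrays on the representative probe set, while its value minus that mean was -0.74 and -0.46 on the further ones. For Pdha1 these figures were -0.32 on the representative probe set and -0.97 on the dimmer one. Mdh1 was split: its representative probe set was lowest in SED 1 (11.88) and the dimmer one highest there (11.52).

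The further probe sets gave the only members' values at an unadjusted p under 0.05, 2 of 34 tested probe sets in PA against SED, both higher, where 9.28% of all probe sets were higher and 5.97% lower at that level. In EX against SED there were 0 of 34 (9.3% higher and 6.3% lower of all probe sets) and in EX against PA 0 of 34 (1.43% in each direction). None of the 34 passed an adjusted p of 0.05, also without SED 1, where 0.0107% of all probe sets did so in EX against SED. Without that array the unadjusted counts were 1 of 34 higher in PA against SED (Me1, against 7.29% of all probe sets) and 1 of 34 lower in EX against PA (Slc25a13, -0.22 ± 0.09 SE, against 2.67%). The dimmer probe set of Me1 read 8.44, 8.86, 8.82 and 9.09 in SED, 9.29, 9.11, 9.17 and 9.20 in PA and 8.78, 9.16, 9.10 and 9.21 in EX. Its PA arrays lay above all SED arrays. PA stood 0.39 ± 0.14 (SE) above SED (limma adjusted p = 0.249), and 0.27 ± 0.12 without SED 1 (limma adjusted p = 0.381), against 0.14 on the representative probe set. For Slc25a13 the dimmer probe set gave 0.25 ± 0.11 (SE) in PA against SED (limma adjusted p = 0.313), against 0.04 on the representative one, and 0.17 ± 0.10 without SED 1 (limma adjusted p = 0.521). The further probe sets of Cs also had PA arrays above all SED arrays, with differences of 0.34 ± 0.18 and 0.23 ± 0.12 (SE), and 0.18 ± 0.15 and 0.13 ± 0.10 without SED 1. So did the dimmer probe set of Pdha1, with 0.41 ± 0.19 (SE, limma adjusted p = 0.334), and 0.20 ± 0.12 without SED 1 (limma adjusted p = 0.558). Over the representative probe sets of all genes, 4.02% had all PA arrays above all SED arrays. The share over all probe sets was not counted. For the 4 tested genes with probe sets under the filter, namely Cs, Sucla2, Got2 and Idh1, those had means of 3.79 to 4.79 and were not interpreted.

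**Figure D4:**
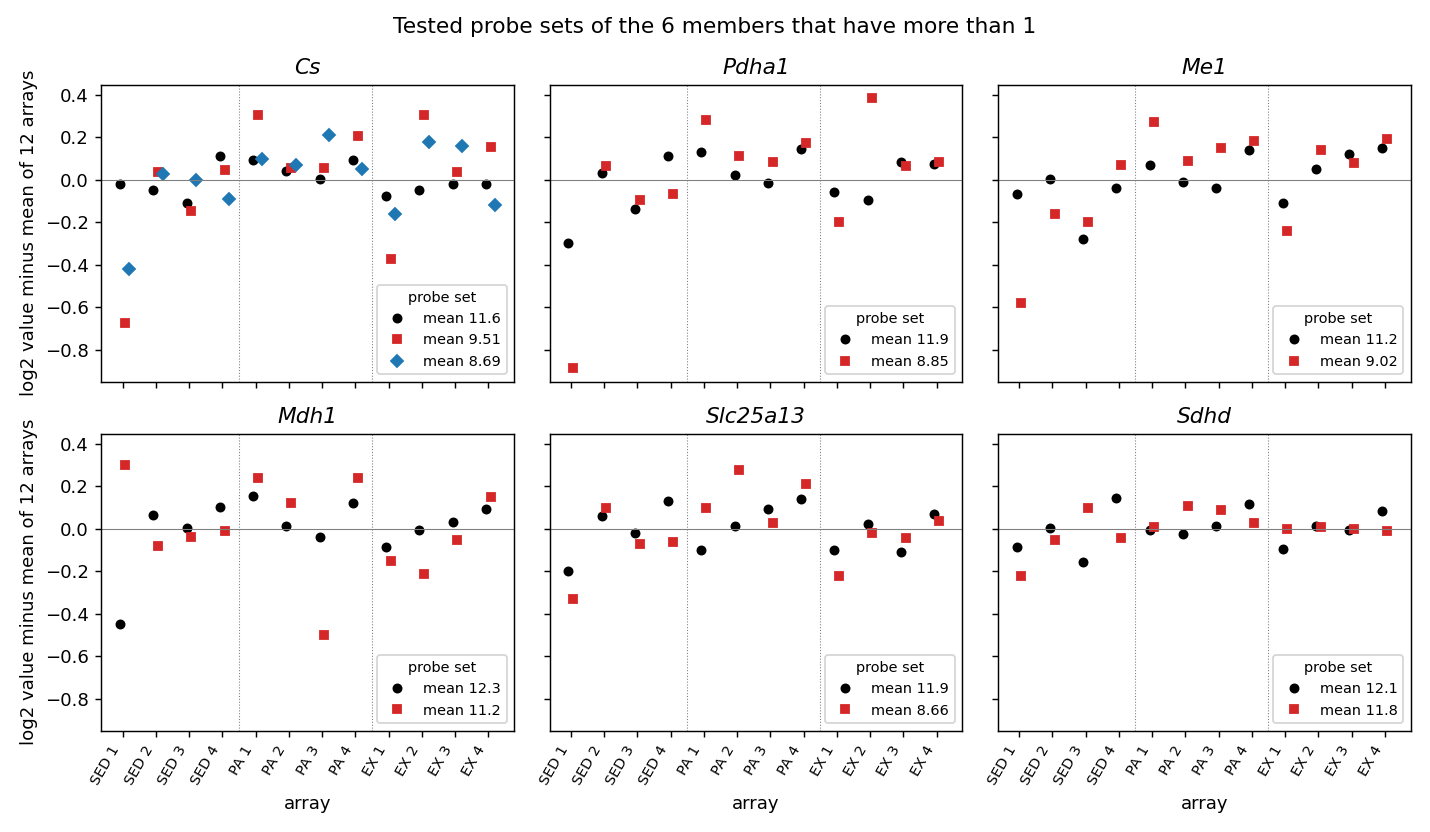
Log2 value minus the mean of the 12 arrays for each tested probe set of the 6 members that have more than 1, by array, with each probe set named by its mean log2 value. In SED 1 the probe sets of Cs, Pdha1 and Me1 spread apart, and those of Mdh1 lie on opposite sides of 0.

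Promoters of the members were searched for motifs of factors known for mitochondrial genes, as a feature that the choice of members did not use. The RefSeq promoter table (GRCr8, 250 bases before to 50 after the start) held 27 of the 28 members. The motif TCAAGGTCA of the estrogen-related receptors was found on either strand in 1 of 27, that of Sdhd, against 0.412% of all 27457 promoters. The palindromic motif of nuclear respiratory factor 1 was in 0 of 27 against 0.932%, and CCGGAAGT of ETS factors in 2, those of Dlst and Mdh2, against 4.01%. The matches are shown with their surroundings on the gene's strand, 5′ to 3′, with the motif or its reverse complement in capitals. Relative to the transcription start used in the promoter table, the Sdhd match begins at position 35, that of Dlst at -21 and that of Mdh2 at -242. The gene record of Dlst begins further upstream, at position 110489576 of its chromosome, so its match lies inside that record. They lie at chr8:59850592-59850616 (minus strand), chr6:110489675-110489702 (plus strand) and chr12:26544066-26544091 (minus strand). A match describes the letters only, and the 3 genes did not share a pattern over the arrays: SED 1 was the highest array for Dlst and the lowest for Mdh2.
Sdhd: ggccgtagggTGACCTTGAgccctc
Dlst: ggccggcctcACTTCCGGttgttgccgg
Mdh2: agcagaccCCGGAAGTgggcaaagcg

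Other genes of these pathways were read from a list of 48 names, of which 43 had a probe set and 38 were tested. None passed an limma adjusted p of 0.05. At an unadjusted p under 0.05 there were 3 higher and 1 lower in PA against SED and 3 higher and 0 lower in EX against SED, shares of 38 genes to be read against 7.33%, 5.14%, 6.97% and 5.95% over all genes, and 0 in EX against PA. The 3 that were higher in PA, a share near that over all genes, were Pdp1, Pdp2 and Pdpr. They encode the catalytic subunits (Pdp1 and Pdp2) and the regulatory subunit (Pdpr) of pyruvate dehydrogenase phosphatase, which removes the inhibitory phosphates from Pdha1.

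Pdp2 read 7.78, 8.24, 8.03 and 7.82 in SED, 8.35, 8.42, 8.42 and 8.20 in PA and 8.11, 8.26, 8.15 and 8.32 in EX. PA overlapped SED by PA 4 alone and stood 0.38 ± 0.11 (SE) above it (limma adjusted p = 0.204), or 0.32 ± 0.11 without SED 1. Pdp1 read 7.45, 8.22, 7.92 and 8.10 in SED, 8.53, 8.17, 8.65 and 8.24 in PA and 8.17, 8.46, 8.20 and 8.38 in EX. SED 1 was the lowest array, and PA stood 0.48 ± 0.17 (SE) above SED (limma adjusted p = 0.246), or 0.32 without SED 1. In EX the differences from SED were 0.24 ± 0.11 for Pdp2 (limma adjusted p = 0.327) and 0.38 ± 0.17 for Pdp1 (limma adjusted p = 0.304), and 0.18 and 0.22 without SED 1. On the dimmer tested probe set of Pdp2 PA stood 0.19 ± 0.115 (SE) above SED (limma adjusted p = 0.444), or 0.10 without SED 1. There EX stood 0.28 ± 0.115 above SED (limma adjusted p = 0.269), or 0.19 without SED 1. Other dimmer tested probe sets also had an unadjusted p under 0.05 in a comparison with SED. That of Pdk4, a pyruvate dehydrogenase kinase, stood 0.60 ± 0.25 (SE) above SED in EX and 0.46 ± 0.25 in PA. On its representative probe set these differences were 0.195 and 0.17. Glud1 stood 0.35 and 0.385 above SED in the same order, while Lipt2 differed by -0.225 and -0.305. The smallest limma adjusted p of these was 0.223.

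Pdpr read 5.65, 6.31, 6.75 and 6.65 in SED, 6.89, 6.74, 6.86 and 7 in PA and 7.02, 7.37, 7.26 and 6.89 in EX. All EX arrays lay above all SED arrays, and PA overlapped SED through PA 2 alone. EX stood 0.80 ± 0.21 (SE) above SED (limma adjusted p = 0.138) and PA 0.53 ± 0.21 above it (limma adjusted p = 0.271), and without SED 1 the differences were 0.57 ± 0.14 (limma adjusted p = 0.154) and 0.30 ± 0.14 (limma adjusted p = 0.411).

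Gpd2, the mitochondrial enzyme of the glycerol phosphate shuttle, which also brings cytosolic reducing equivalents to the respiratory chain, stood 0.53 ± 0.24 (SE) above SED in EX (limma adjusted p = 0.304), or 0.30 without SED 1. Slc25a10, the dicarboxylate carrier, stood below SED by -0.30 ± 0.13 (SE) in PA (limma adjusted p = 0.310), with SED values of 5.41, 5.80, 5.85 and 5.72 and PA values of 5.39, 5.46, 5.42 and 5.33. Here SED 1 was the SED array nearest to PA, and without it the PA arrays all lay below the SED arrays, by -0.39 ± 0.12 (limma adjusted p = 0.257). In EX against PA the smallest p-values were those of Pck2, a mitochondrial enzyme that makes phosphoenolpyruvate (0.26 ± 0.14, SE), Gpt, an alanine aminotransferase (-0.25 ± 0.16), Pdk2, a pyruvate dehydrogenase kinase (-0.19 ± 0.13), and Aco1, the cytosolic aconitase (-0.12 ± 0.09), each with an limma adjusted p of 1.0.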

How the data were processed

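Left ventricle RNA was hybridized to Affymetrix rat expression arrays, 4 per group, per the labels. The authors deposited log2 values with 2 decimals. Both MAS5 and RMA appear in the submitters' processing notes, and which of them gave these values is not stated, so background correction and exact scale are unknown. Values were used as deposited. Control rows (57) were left out. Of 31042 probe sets, 20826 had 1 gene symbol, 436 several and 9780 none, and all 28 matched members kept their symbol in RefSeq.

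Groups came from the array titles. The 18626 probe sets in the upper 60% by mean were fitted with limma 3.58.1 (R 4.3.3), as 3 group means over 12 arrays (9 residual degrees of freedom), with two-sided moderated tests adjusted by Benjamini-Hochberg over all tested probe sets. Gene counts use 10244 representative probe sets. The steps were tested on simulated data. Figures used matplotlib 3.10.9.

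Values by array are given for the 4 members with the smallest p in each comparison and for Cs, Idh3a, Ogdh, Sdha, Mdh2, Pdha1, Got2, Slc25a11, Slc25a12 and Me1; of other pathway genes the 4 with the smallest p are named. Members and lists were chosen with earlier results of these data known. Alternatives were quantile normalization, centring of medians, 2 other filters, an offset, another variance model, array weights, 2 groups per fit, the replicate number as a block, the mean over a gene's probe sets, and fits without 1 array at a time.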

Additional observations from a re-analysis of the deposited data

Results flagged for a closer look

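In 81 groups of 4 arrays (27 members in 3 groups), 5 held an array whose gap to the nearest other was too large a share of the group's range by Dixon's criterion (95%); chance alone flags about 1 in 20. Of these, 3 were in SED 1. Got1 read 10.58 there, against 11.25 to 11.38 on the other SED arrays, Idh3g read 12.05 against 12.34 to 12.39, and Idh2 read 13.20 against 13.08 to 13.10. Sdha read 11.72 in EX 1, against 11.80 to 11.81 on the other EX arrays. Dlst read 10.77 in EX 3, against 10.71 on each of the other 3.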

How the results depend on the processing

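No member passed an adjusted limma p of 0.05 under any alternative. The median difference over the members lay between 0.0402 and 0.1367 in PA against SED, -0.0908 and -0.0442 in EX against PA, and -0.0164 and 0.0467 in EX against SED, where its sign was not stable. In PA against SED the members at an unadjusted p under 0.05 went from 0 to 1 of 27 (Sdha) with the upper 40% of probe sets, 2 (Got1, Sdha) with an offset of 32, 5 (Got1, Mdh2, Sdha, Sdhc, Suclg1) with a trended robust variance and 2 (Sdha, Me1) with the mean of a gene's probe sets. All were higher in PA, as were 8.33%, 8.02%, 7.94% and 9.22% of all genes at that level under the same settings. Leaving out 1 array gave 0 to 2, with 2 each without SED 2 (Got1, Sdha), SED 3 (Got1, Pdhx) and SED 4 (Dld, Sdha), where 9.04%, 9.71% and 8.03% of all genes were higher. Probe sets called over the whole array went from 0 to 8 in EX against SED, 1 in PA against SED and 1 in EX against PA with array weights, and to 2 in EX against SED with the mean of a gene's probe sets. Leaving out 1 array gave 0 to 2 there, 1 without EX 2 and 2 without SED 1. The cause was not tested.

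Several small differences changed sign. In EX against SED, Pdhx was -0.012 with quantile normalization and -0.012 with array weights, Slc25a11 was -0.0198 with quantile normalization, -0.01 with centred medians and -0.0341 with array weights, and Cs was 0.1083 with the mean of its probe sets. In PA against SED Slc25a12 was -0.0157 with quantile normalization, and in EX against PA Me1 was -0.0588 with the mean of its probe sets. Leaving out 1 array gave, in EX against SED, -0.0025 to 0.1342 for Pdha1, -0.0283 to 0.185 for Pdhx, -0.0558 to 0.0175 for Cs, -0.0442 to 0.0117 for Idh3a, -0.0642 to 0.0275 for Ogdh and -0.0433 to 0.0567 for Slc25a11. In PA against SED it gave -0.0167 to 0.0842 for Ogdh and -0.0475 to 0.1125 for Slc25a12, and in EX against PA -0.1525 to 0.0075 for Slc25a12 and -0.02 to 0.0667 for Me1. Arrays with the same replicate number did not deviate together (correlations of -0.208 to 0.134), and with the replicate number as a block 0 members and 0 probe sets passed in each comparison. The number of arrays limits the precision.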
